A study of Mus musculus with 2 samples.

Results

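The transcripts described here are 209 abundant mouse gene rows with a serial name, either Gm followed by digits (104 rows) or a clone name ending in Rik (the remaining rows). A row was a member if its unique molecular identifiers (UMIs, 1 per captured RNA molecule) summed to at least 1000 over the nuclear barcodes with at least 500 genes and exactly 1 positive hashtag. The 209 members came from 9698 rows with such names among 31053 gene rows, and 6636 of the 9698 held at least 1 UMI. Together the members held 702843 UMIs, which was 60.4% of the UMIs of all rows with such names and 2.53% of all gene UMIs. The summed UMIs chose the members and are given as a description. Just inside the threshold were Gm15584 with 1011 UMIs, 5730480H06Rik with 1002 and 1110059E24Rik with 1001. Just outside it were Gm42303 with 998, Gm15577 with 996 and 6720427I07Rik with 996.

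The nuclei were taken from the paraventricular hypothalamus (PVH) of 17 mice at 4 weeks of age. Every animal had Sim1-Cre, a recombinase driven by the Sim1 promoter, and the Cre-dependent nuclear envelope reporter Sun1-GFP, and GFP-positive nuclei were enriched by sorting. There were 7 mice without an Otp alteration, 4 with a floxed Otp allele (Otp fl/+) and 6 with the Otp Q153R allele (Q153R/+), Otp being a homeodomain factor of these neurons. Nuclei of the animals were pooled by hashtag into 1 library. The hashtag rows are named Ctrl, KD and Q153R. Only elimination ties KD to the floxed mice, and the pools are named here by their hashtags. With 1 pool per genotype and no map from nuclei to mice there is no replicate, so no test between pools or neuron types was made, and every 95% interval covers counting error only.

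Serial names are given to mouse gene models that have not yet received a descriptive name. Many such models are long noncoding RNAs, which are transcribed and often spliced like messenger RNAs but are not translated, and some run antisense to a coding gene or lie in intergenic space. Many long noncoding RNAs stay in the nucleus and are made in few cell types, so nuclear RNA sampling captures them. The PVH holds neurosecretory neurons that make oxytocin (Oxt), vasopressin (Avp), corticotropin-releasing hormone (Crh), thyrotropin-releasing hormone (Trh) and somatostatin (Sst).

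Not all members were noncoding. The GENCODE annotation called 70 of the 209 (33.5%) protein coding, 70 lincRNA (long intergenic noncoding RNA), 68 antisense and 1 a processed transcript. The lincRNAs held 47.1% of the members' UMIs, the coding rows 33.7% and the antisense rows 18.7%. The members were long: their median span was 62256 bp, against 6012 bp over all rows with such names and 66588 bp over the 4762 gene rows with at least 1000 UMIs. Of the members, 102 overlapped a measured coding gene on the opposite strand and 56 had no measured coding gene overlapping or within 10 kb. Chromosome 7 held 21 members, the X chromosome 4 and the Y chromosome 1 (Gm47283). The plot of UMIs by rank shows how the classes were spread over the order.

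**Figure D1:**
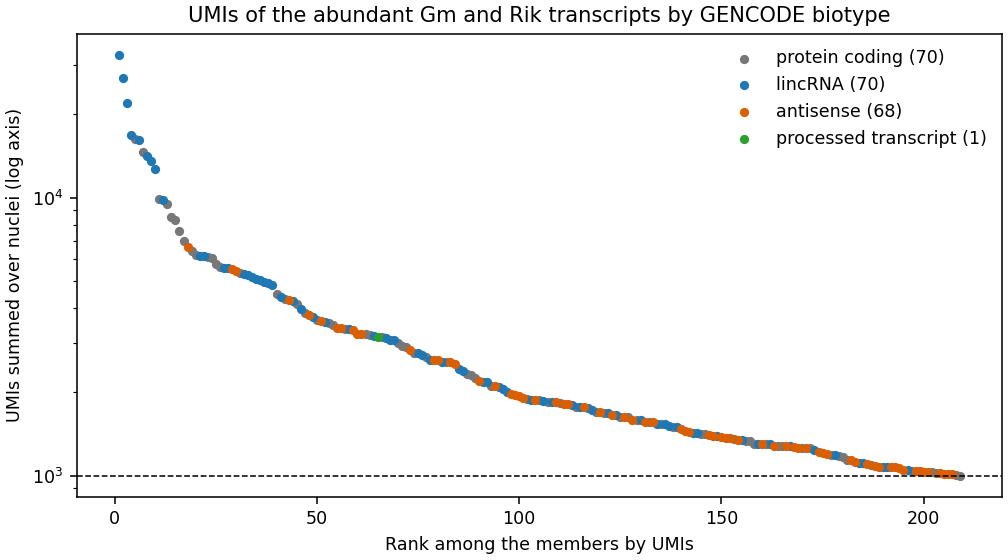
Each point is 1 of the 209 members, placed by its rank (x axis) and by its UMIs summed over nuclei (y axis, log scale), coloured by GENCODE biotype. The dashed line marks the threshold of 1000 UMIs, and the points fall from 32676 to 1001 UMIs with a median of 1864.

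The RefSeq promoter table held 93 of the 209 members with 119 promoters, each 300 bases long, from 250 bases before to 50 after the start. Those of 7 members that the results turn on are shown, because these members marked a neuron type or belonged to a group of neighbours that varied together, and because their RefSeq and GENCODE starts coincided. On GRCm38.p6, the D030068K23Rik promoter is at chr8:109074972-109075271 on the plus strand, that of A830082K12Rik at chr13:78197767-78198066 on the plus strand, and that of 1810034E14Rik at chr13:64248450-64248749 on the plus strand. The 4930587E11Rik promoter is at chr6:102265850-102266149 on the plus strand and that of 4930532I03Rik at chr10:106602431-106602730 on the minus strand. The 4930555F03Rik promoter is at chr8:49370636-49370935 on the plus strand and that of Gm2516 at chr8:50367862-50368161 on the plus strand. Capitals mark a match, on either strand, to any of the motifs TATAAA (the TATA box), TAATTA (a core bound by homeodomain factors), ATGCAAAT (the octamer bound by POU factors) or ACGTG (a core bound by bHLH-PAS factors).
D030068K23Rik: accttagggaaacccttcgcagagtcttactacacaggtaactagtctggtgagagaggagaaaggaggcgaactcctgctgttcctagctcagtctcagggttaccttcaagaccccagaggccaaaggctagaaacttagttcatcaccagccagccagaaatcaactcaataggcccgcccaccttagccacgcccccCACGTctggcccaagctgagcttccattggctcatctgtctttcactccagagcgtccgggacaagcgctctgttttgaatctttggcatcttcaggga
A830082K12Rik: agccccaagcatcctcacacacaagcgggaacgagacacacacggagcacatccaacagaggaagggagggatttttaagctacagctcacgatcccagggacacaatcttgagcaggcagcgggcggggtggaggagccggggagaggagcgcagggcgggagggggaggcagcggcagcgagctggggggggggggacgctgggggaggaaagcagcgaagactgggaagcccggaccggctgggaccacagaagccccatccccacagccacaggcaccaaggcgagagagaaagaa
1810034E14Rik: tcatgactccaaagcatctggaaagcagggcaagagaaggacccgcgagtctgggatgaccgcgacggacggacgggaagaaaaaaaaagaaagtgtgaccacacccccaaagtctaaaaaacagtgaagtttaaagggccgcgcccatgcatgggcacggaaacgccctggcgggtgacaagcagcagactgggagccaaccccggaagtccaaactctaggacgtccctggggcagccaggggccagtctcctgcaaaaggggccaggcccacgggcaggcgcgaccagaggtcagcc
4930587E11Rik: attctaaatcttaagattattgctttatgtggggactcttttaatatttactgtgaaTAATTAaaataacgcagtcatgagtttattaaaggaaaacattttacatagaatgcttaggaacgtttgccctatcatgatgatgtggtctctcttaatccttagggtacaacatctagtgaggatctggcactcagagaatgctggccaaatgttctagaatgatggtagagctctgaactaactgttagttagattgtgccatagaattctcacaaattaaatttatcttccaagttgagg
4930532I03Rik: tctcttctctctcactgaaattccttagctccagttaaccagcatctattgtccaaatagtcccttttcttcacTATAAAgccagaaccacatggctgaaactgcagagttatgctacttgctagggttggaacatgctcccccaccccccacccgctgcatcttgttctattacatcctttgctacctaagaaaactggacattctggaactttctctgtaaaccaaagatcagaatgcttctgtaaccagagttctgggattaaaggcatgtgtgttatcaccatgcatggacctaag
4930555F03Rik: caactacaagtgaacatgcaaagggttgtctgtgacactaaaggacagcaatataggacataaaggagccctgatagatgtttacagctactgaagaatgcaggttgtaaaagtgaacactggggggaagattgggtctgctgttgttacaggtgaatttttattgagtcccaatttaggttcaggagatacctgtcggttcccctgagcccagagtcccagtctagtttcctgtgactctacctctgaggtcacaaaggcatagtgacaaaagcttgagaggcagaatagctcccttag
Gm2516: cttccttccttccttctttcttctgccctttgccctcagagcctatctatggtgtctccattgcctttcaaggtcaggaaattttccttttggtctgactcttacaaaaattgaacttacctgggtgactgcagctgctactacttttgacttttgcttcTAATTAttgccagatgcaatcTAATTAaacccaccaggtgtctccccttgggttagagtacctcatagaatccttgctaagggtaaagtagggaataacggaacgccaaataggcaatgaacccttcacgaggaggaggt

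The 4 motifs were searched on both strands in every promoter of the table. TATAAA was in 9.24% of the 119 member promoters and in 13.6% of all 32851 promoters, TAATTA in 4.20% and 5.29%, ATGCAAAT in 1.68% and 1.74%, and ACGTG in 23.5% and 19.6%. Matches of different motifs may share bases, and a match is a description of letters. Among the promoters shown, Gm2516 held TAATTA 2 times, 4930587E11Rik held it 1 time, 4930532I03Rik held TATAAA, and D030068K23Rik held ACGTG, read here as CACGT. The other 3 held none of the 4 motifs in this window. Median GC content was 56.0% in member promoters, 64.3% in those of coding members and 52.7% in those of noncoding members, against 52.7% over all promoters.

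Levels were computed over 4321 nuclei with 1 hashtag that remained after nuclei near multiple-tag barcodes were left out: 1719 labelled Ctrl, 1155 labelled KD and 1447 labelled Q153R. A level is the UMIs of a row per 1000000 gene UMIs (CPM), and it is not corrected for gene length, so it does not rank members by abundance. Median depth per nucleus was 5091 UMIs in Ctrl, 5613 in KD and 4430 in Q153R. Clustering on genes other than the members and the type markers gave 20 neuron clusters and 1 astrocyte-like cluster of 77 nuclei. Of the neuron clusters, 19 expressed Sim1 and 1 was GABAergic-like (551 nuclei, Gad1, Gad2, Slc32a1), with Sim1 at 23.0 CPM. The cluster with the highest level of each peptide stood for its type: 93 nuclei for Oxt, 203 for Avp, 725 for Crh, 91 for Trh and 197 for Sst. Cluster 14 (159 nuclei) also held Oxt at 2419 CPM, against 9548 CPM in the Oxt cluster. It was counted with the other neurons in every Oxt ratio. Another cluster of 89 nuclei (cluster 12) also held Sst at 1864 CPM, against 2547 CPM in the Sst cluster, and was counted with the other neurons. The Crh cluster was led by Sv2c and Hs3st2, with Crh at 247 CPM, under its Avp level of 320 CPM. The next highest Crh level was 37.6 CPM, in cluster 16. Over all neurons 94 nuclei were selected by Crh UMIs, so most of the 725 nuclei were not among them. The Trh cluster was led by Ucn3, the gene of the peptide urocortin 3, with Trh at 440 CPM. Trh was also at 302 CPM in cluster 1 (184 nuclei), 262 CPM in cluster 2 (235 nuclei) and 201 CPM in cluster 10 (57 nuclei), which were counted with the other neurons, so the Trh cluster holds a minority of the nuclei of clusters with Trh.

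Of the members with the most UMIs, several were found in nearly all neuron types and others were close to absent from one. A230057D06Rik, a lincRNA at chr7:61704519-61928690, held 32676 UMIs and ranged over clusters from 957 to 1592 CPM. It stood at 1195 CPM in the nuclei labelled Ctrl, 1185 in KD and 1283 in Q153R. C230004F18Rik, a lincRNA on the X chromosome opposite Cdr1, held 26823 UMIs. Its level was 200 CPM in the Avp, 214 CPM in the Oxt and 273 CPM in the Sst cluster, against a median cluster of 1151 CPM and a highest cluster of 1325 CPM, so it was low in these 3 types. Cluster 12, which also held Sst, followed at 474 CPM. Gm42418, a row known to collect reads of ribosomal RNA, held 21827 UMIs. Its level was 746 CPM in Ctrl, 841 in KD and 746 in Q153R, and 1146 CPM in the astrocyte-like cluster.

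Gm32647, a lincRNA at chr7:94042691-94709171, had the highest ratio of highest to lowest cluster among the 8 members with the most UMIs, though its lowest level rests on 4 UMIs. Its level was 1419 CPM in cluster 13 and 1178 CPM in the Crh cluster, 25.2 CPM in the Avp cluster and 7.61 CPM in the Trh cluster. Gm20388 held 16296 UMIs and ranged from 518 to 656 CPM. It is annotated as protein coding and spans chr8:119910841-124345722, across many other genes, so its counts are uncertain. 4930402H24Rik, a coding row, was at 298 CPM in the Crh cluster and at 651 CPM in cluster 10. C130073E24Rik (13.5 to 1531 CPM) and A230006K03Rik (155 to 735 CPM), both lincRNAs, belong to groups of neighbouring members described further on. The 8 members together held 22.7% of the members' UMIs.

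Across the 6 neuron types, 22 members (10.5%) stood at 2 times the other neurons or more in at least 1 type, against 14.3% of all gene rows with at least 1000 UMIs. At 0.5 times or less in at least 1 type stood 80 (38.3%), against 28.4%, and 124 (59.3%) did neither, against 65.9%. In the Oxt cluster 8 members (3.83%) reached 2 times, where 3.04% of these gene rows did, and 30 (14.4%) were at 0.5 times or less, against 9.66%. The Avp cluster had 5 high members (2.39%, all genes 2.39%) and 37 low ones (17.7%, all genes 10.6%). The Crh cluster had 8 high members (3.83%, all genes 7.01%) and 62 low ones (29.7%, all genes 15.9%). For the Trh cluster the counts were 3 high (1.44%, all genes 2.35%) and 13 low (6.22%, all genes 6.05%), and for the Sst cluster 2 high (0.957%, all genes 2.5%) and 27 low (12.9%, all genes 6.66%). In the GABAergic-like cluster 1 member was high (0.478%, all genes 0.735%) and 5 were low (2.39%, all genes 2.5%).

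The members' shares on the high side were therefore near or under those of all genes, and their shares on the low side were above them in the Oxt, Avp, Crh and Sst clusters. The low side was mainly noncoding: in the Crh cluster 49 of the 139 noncoding members and 13 of the 70 coding members were low. The median member stood at 0.727 times the other neurons in the Crh cluster, against 0.853 for all genes, and members made up 2.12% of the UMIs there and 2.53% over all neurons. The Crh and Sst clusters were the shallowest of the 6 types, with medians of 3883 and 3867 UMIs per nucleus, and the Oxt cluster the deepest, with 6635. Within Sim1-expressing clusters, the median member's level in the shallower nuclei was 1.01 times that in the deeper nuclei, as it was for all genes. Single members ranged from 0.746 to 1.58 times, and whether depth bears on the low shares was not tested.

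**Figure D2:**
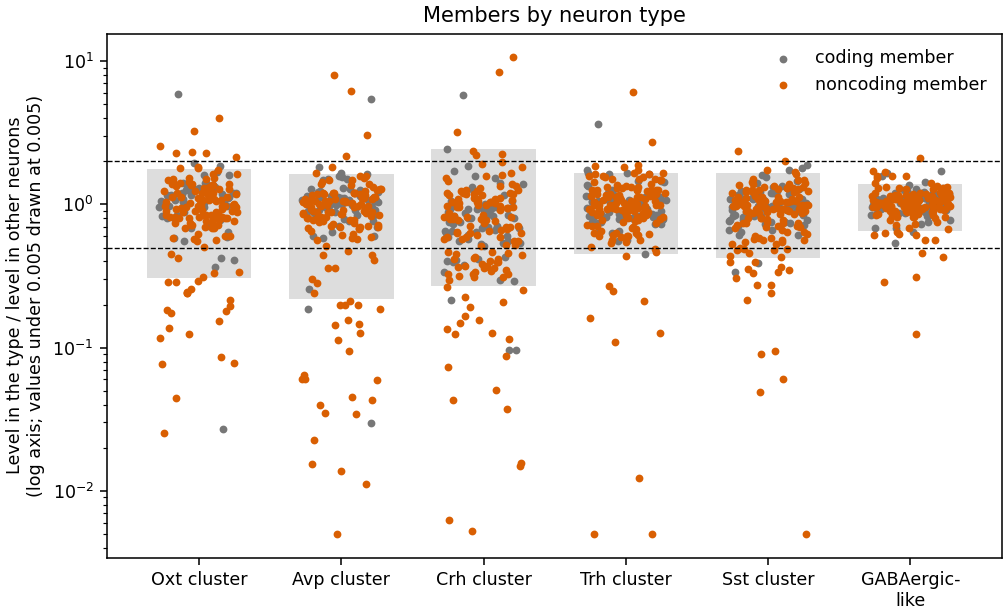
Each point is 1 member, and the y axis (log scale) gives its level in a neuron type divided by its level in all other neurons. Grey points are coding and orange points noncoding members, grey bands span the 5th to 95th percentile of all gene rows with at least 1000 UMIs, dashed lines mark 2 and 0.5 times, and values under 0.005 are drawn at 0.005. The highest points are at 10.6 in the Crh cluster and 8.08 in the Avp cluster, and low points are most numerous in the Crh cluster.

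In the oxytocin cluster the highest member was A830018L16Rik, a coding row at chr1:11414105-11975901. Its level there was 2013 CPM in the nuclei labelled Ctrl, 1906 in KD and 1436 in Q153R, so the Q153R pool was the lowest. Over the pools it stood at 1807 CPM against 306 CPM in the other neurons, a ratio of 5.90 (95% interval 5.54 to 6.29). Selecting nuclei by their Oxt UMIs instead of by cluster (106 nuclei) gave a lower ratio of 4.47. The next cluster, number 20, was at 906 CPM. Within the Oxt cluster the Q153R to Ctrl ratio of A830018L16Rik was 0.713 (0.617 to 0.823), over 36 and 39 nuclei.

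D030068K23Rik, the lincRNA whose promoter holds ACGTG, was the second. It stood at 255 CPM in Ctrl, 300 in KD and 297 in Q153R within the Oxt cluster, with a ratio of 4.00 (3.40 to 4.68) to the other neurons. In the Crh cluster it had 4 UMIs, a level of 1.36 CPM. Gm28928, a lincRNA that was higher still in the Trh cluster, stood at 1014 CPM in Ctrl, 1069 in KD and 977 in Q153R, and 3.25 times (2.99 to 3.52) the other neurons. 9530059O14Rik, a lincRNA, was at 261 CPM in the Oxt cluster and 2.34 times the other neurons, but cluster 14, which also held Oxt at 2419 CPM, was close behind at 239 CPM. Selected by Oxt UMIs, the ratios were 3.77 for D030068K23Rik, 2.65 for Gm28928 and 2.82 for 9530059O14Rik. Low members in the Oxt cluster were named after their values were seen. 4930587E11Rik and 2010300C02Rik had 1 UMI each among 93 nuclei, against 62.2 and 58.7 CPM in the other neurons.

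The vasopressin cluster was marked by Gm26905, a lincRNA at chr8:58171435-58298866 that lies opposite Galntl6, a gene of the polypeptide GalNAc-transferase family. In this cluster Gm26905 was at 1104 CPM in Ctrl, 1016 in KD and 1293 in Q153R. Its ratio to the other neurons was 8.08 (7.56 to 8.63), and that of Galntl6 was 7.83. Gm21798, a coding row opposite the adenylyl cyclase gene Adcy8, was at 177 CPM in Ctrl, 130 in KD and 234 in Q153R. These levels rest on 70, 50 and 78 UMIs. Its ratio was 5.49 (4.66 to 6.44), and Adcy8 had 5.75. The member rule summed UMIs over all types, so a row such as Gm21798 can be a member mainly through the type where it is high. The ratios in every type are therefore a description. A830082K12Rik, antisense to Nr2f1, the gene of the nuclear receptor COUP-TF1, was at 162 CPM and 3.06 times (2.60 to 3.58) the other neurons. The Nr2f1 ratio was 2.36.

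Gm44593 lies on the X chromosome 1956 bp from Pou3f4, a POU homeodomain factor gene. It reached 316 CPM in the Avp cluster, 337 in Ctrl, 315 in KD and 294 in Q153R, and the Q153R to Ctrl ratio within the cluster was 0.873 (0.666 to 1.14). The level in cluster 14 was nearly as high, 294 CPM, and no UMI of it was found in the Trh cluster, which allows at most 5.71 CPM and makes it at least 11.5-fold lower there than in other neurons. Low members in the Avp cluster, named after their values were seen, included Gm45321 with 0 UMIs, at least 44.4-fold lower than in other neurons, and Gm2516 with 1 UMI, a ratio of 0.0112 (0.0003 to 0.0623).

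In the corticotropin-releasing hormone cluster the 3 highest members were Gm3294, 1810034E14Rik and 2010300C02Rik. This was the largest of the 6 types (725 nuclei), and the member rule summed UMIs over all types. A row can therefore be a member mainly through the type where it is high, so these ratios are a description. Gm3294, a lincRNA at chr6:28981634-29028922, was at 230 CPM in Ctrl, 184 in KD and 245 in Q153R, and 10.6 times (9.40 to 12.1) the other neurons. 1810034E14Rik, antisense to the phosphatase gene Cdc14b, was at 240 CPM in Ctrl, 197 in KD and 274 in Q153R, and 8.43 times (7.53 to 9.44) the other neurons, beside 7.52 for Cdc14b. Both were lowest in KD. 2010300C02Rik, a coding row, was at 219 CPM in Ctrl, 248 in KD and 149 in Q153R, and 5.80 times (5.19 to 6.48) the other neurons. Its Q153R level in this cluster was 0.681 times (0.551 to 0.840) that in Ctrl.

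Selecting nuclei by their Crh UMIs instead of by cluster gave 94 nuclei and lower ratios: 4.28 for Gm3294, 4.57 for 1810034E14Rik and 3.06 for 2010300C02Rik. At a finer clustering the ratio of 1810034E14Rik was 3.51. 4930587E11Rik, antisense to the contactin gene Cntn3, stood at 151 CPM in the Crh cluster, 3.23 times the other neurons, but was higher in cluster 12 at 242 CPM. 4932438A13Rik, a coding row, was at 779 CPM in Ctrl, 615 in KD and 548 in Q153R, and 2.45 times (2.32 to 2.58) the other neurons. At the low end, named after their values were seen, Gm48749 had 1 UMI in 725 nuclei against 65.1 CPM elsewhere and Gm28928 had 7 UMIs against 382 CPM.

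Trh, Sst and GABAergic-like clusters had few high members. In the Trh cluster, Gm28928 was at 1507 CPM in Ctrl, 1990 in KD and 1926 in Q153R, and 6.10 times (5.69 to 6.53) the other neurons. Gm15155, a coding row 927 bp from Ptchd1, had a ratio of 3.63 (2.95 to 4.43), and 9530036O11Rik, antisense to the morphogen gene Shh, a ratio of 2.71 from 50 UMIs. Selected by Trh UMIs (155 nuclei), these ratios were 1.98, 1.43 and 1.41, so none reached 2 times. In the Sst cluster 4930532I03Rik, antisense to the presynaptic scaffold gene Ppfia2, stood at 173 CPM in Ctrl, 188 in KD and 120 in Q153R, and 2.36 times (1.96 to 2.82) the other neurons. Gm45881, a lincRNA, stood there at 407 CPM in Ctrl, 471 in KD and 226 in Q153R, so Q153R was the lowest, at 0.555 times (0.393 to 0.772) Ctrl from 49 and 146 UMIs. Its ratio to the other neurons was 2.02 in that cluster and of 1.61 to 1.66 when nuclei near multiple-tag barcodes were kept, the clustering was coarser or nuclei were selected by Sst UMIs. 9630028H03Rik, antisense to the phospholipase gene Plcb1, was high in 3 types: 2.57 times in Oxt, 2.20 in Avp and 2.12 in GABAergic-like neurons. The last ratio was 1.98 at the finer clustering and 1.78 when nuclei were selected by marker UMIs, both under 2 times. At the low end, named after their values were seen, Gm48749 had 0 UMIs in the Sst cluster, at least 15.6-fold lower than in other neurons, and Gm44593 stood at 8.92 CPM in the GABAergic-like cluster, 0.124 times (0.0793 to 0.186) the other neurons.

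Over the 20 neuron clusters, 57 members (27.3%) reached 2 times the median cluster in their highest cluster, against 22.3% of all genes, and 12 (5.74%) reached 5 times, against 4.6%. Gm44593 had the widest range, 36.6 times its median cluster of 8.65 CPM. Gm28928, a lincRNA at chr1:124505757-124846039, was at 2619 CPM in cluster 8, which Bnc2 and Ebf2 lead, at 1812 CPM in the Trh cluster and at 1015 CPM in the Oxt cluster, against a median of 144 CPM and 1.81 CPM in cluster 13. Its level followed none of these peptides over clusters, with r of 0.171 with Trh and 0.168 with Oxt. Among gene rows with at least 1000 UMIs, those whose cluster levels were most like it were Col18a1 (r 0.866), Ebf2 (0.747) and Sirpa (0.729), and those most like Gm44593 were Rbms3 (0.837), Tmod3 (0.773) and Rspry1 (0.759), each over 20 clusters of 1 library. Bnc2, with 439 UMIs, and Pou3f4, with 101, fell under that limit, and their r was 0.756 with Gm28928 and 0.789 with Gm44593. For Gm3294 the most alike were Kif1b (0.961), Srxn1 (0.947) and Chic1 (0.947).

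Gm20754 and 4930509J09Rik overlap on opposite strands of chromosome 3 and had nearly the same profile. Gm20754, at chr3:73066316-73594830, was at 877 CPM in cluster 11 and 795 in cluster 15, against a median of 95.7 CPM. 4930509J09Rik, at chr3:73351206-73481651, was at 182 CPM in cluster 15 and 161 in cluster 11, against a median of 17.8 CPM. Their cluster levels had r of 0.983. The sources used here do not give the counting's strand setting, so whether reads of overlapping rows on opposite strands were kept apart is not known. The same limit holds for every antisense member named.

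**Figure D3:**
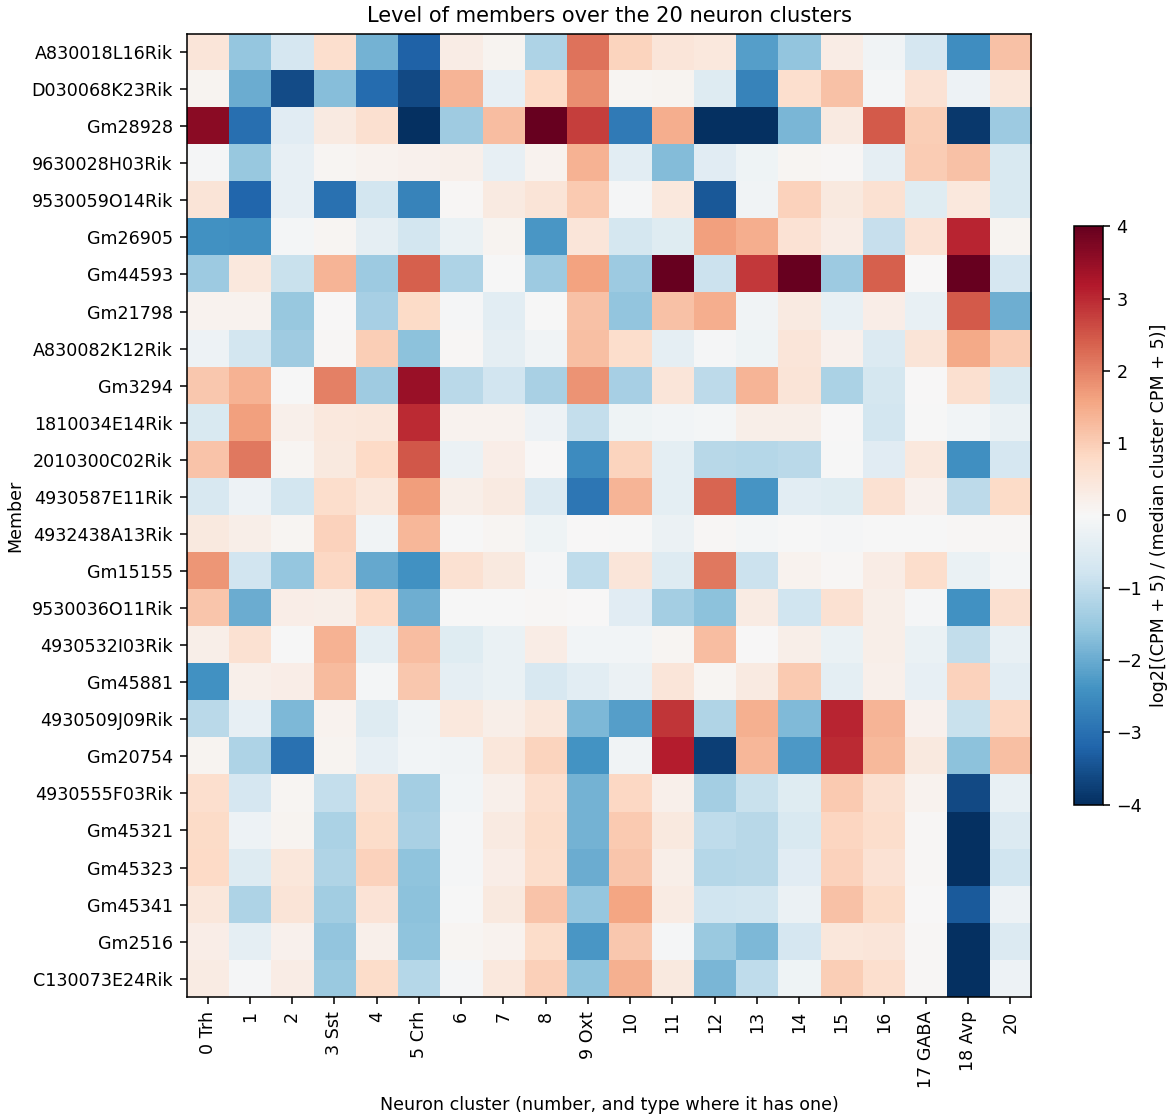
Rows are members that marked a neuron type, had the widest range or lie in the group on chromosome 8. Gm20754, which overlaps 4930509J09Rik, was added. Columns are the 20 neuron clusters. Colour is log2 of (CPM + 5) over (median cluster CPM + 5), from blue (lower) to red (higher), with a colour limit of 4 in both directions. The last 6 rows, from 4930555F03Rik to C130073E24Rik, share 1 pattern, with the Avp cluster lowest.

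Coding genes opposite a member often followed it over the clusters. Each member with a coding neighbour was paired with 1 such gene. In the 100 pairs that overlap on opposite strands, the median r over clusters was 0.575, and 26 had r over 0.8. Among other coding genes with at least 1000 UMIs, 698 had such a partner, with a median r of 0.176, and 24 had r over 0.8. Antisense members had a median r of 0.610 (66 pairs), lincRNAs 0.593 (18 pairs) and coding members 0.350 (16 pairs). Within 10 kb on the opposite strand, 4 of 27 member pairs had r over 0.8, against 15 of 853 for other coding genes. Overlapping on the same strand, 1 of 10 did, against 3 of 68. Within 10 kb on the same strand, 0 of 16 did, against 4 of 653. Counting every placement of the partner, 31 members had r over 0.8, and 25 of these kept it when the member's highest cluster was left out. The count without the highest cluster was not computed for other coding genes, so the 25 are a description. The cluster levels share 1 library, and the reads of both strands may be mixed in them.

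Named pairs show the range of this relation. Gm26905 and Galntl6 had r of 0.999, and 0.993 without the Avp cluster. 1810034E14Rik and Cdc14b had 0.994, Gm21798 and Adcy8 0.991, 4930532I03Rik and Ppfia2 0.969 and 4930587E11Rik and Cntn3 0.948. A pair outside the naming rule, chosen after its values were seen, was 4930419G24Rik with Pex5l, a regulator of HCN channels, at 0.986. 9630028H03Rik and Plcb1 had 0.924, and 9530036O11Rik and Shh 0.762. Without its highest cluster, 9530077C05Rik with Rp9 dropped from 0.903 to 0.681.

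**Figure D4:**
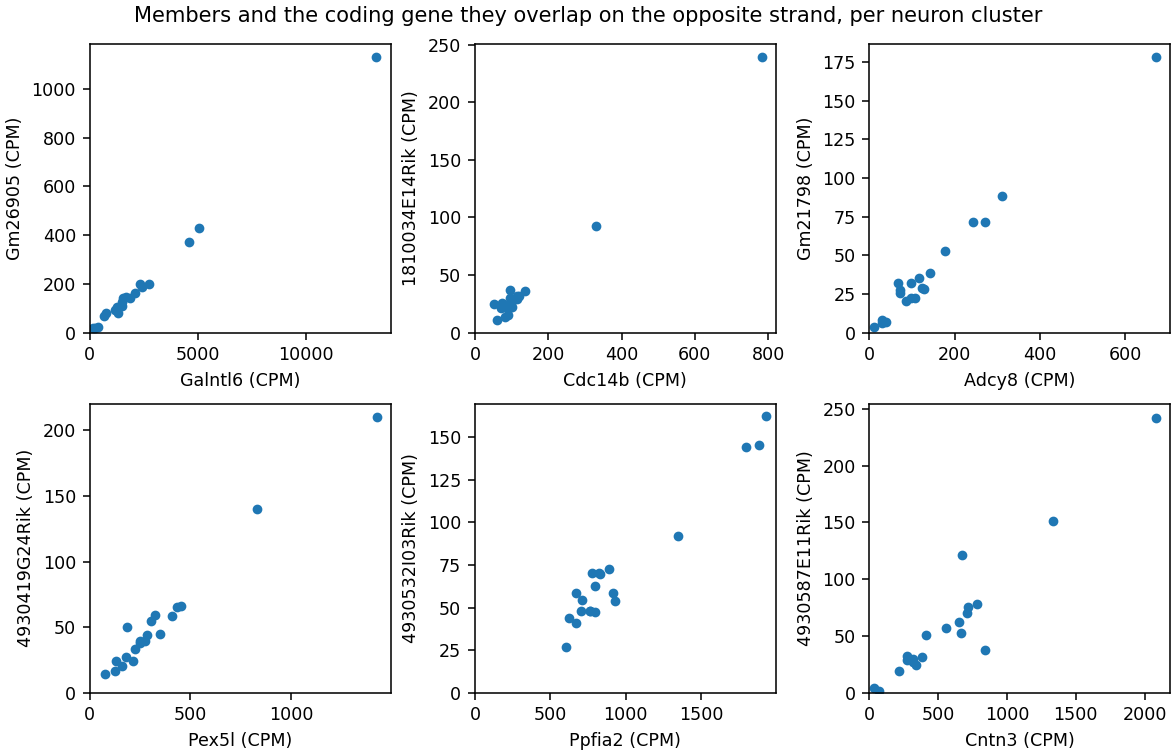
Each panel plots 1 member (y axis, CPM) against the coding gene it overlaps on the opposite strand (x axis, CPM), with 1 point for each of the 20 neuron clusters. In the panel of Gm26905 the Avp cluster is the point at the upper right, and in the panel of 1810034E14Rik it is the Crh cluster.

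When members were joined where gaps were at most 500 kb, a description chosen after values were seen, 2 runs of at least 3 members were found, with 11 members in all. The first run is on chromosome 8 between Tenm3 and Aga, at chr8:49370886-50916997, and holds 6 lincRNAs (4930555F03Rik, Gm45321, Gm45323, Gm45341, Gm2516 and C130073E24Rik) and no coding gene. Their 15 pairs had r from 0.918 to 0.984 over clusters, with a median of 0.949. All 6 were lowest in the Avp cluster. There their summed level was 37.8 CPM (27.2 to 51.0, from 42 UMIs), against 347 CPM in the Oxt, 489 in the Crh, 487 in the Sst, 1315 in the GABAergic-like and 1820 in the Trh cluster. Highest were cluster 10 at 3047 CPM and cluster 15 at 2481 CPM. The summed level in Sim1-expressing clusters was 1188 CPM in Ctrl, 1223 in KD and 1247 in Q153R. Single members of the run differed in direction: Gm45321 stood at 110 CPM in Ctrl, 131 in KD and 99.5 in Q153R, a Q153R to KD ratio of 0.762 (0.685 to 0.847), lower in 14 of 19 clusters. C130073E24Rik stood at 539, 561 and 612 CPM, with a Q153R to KD ratio of 1.09 (1.04 to 1.14).

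The other run is on chromosome 7 between Snrpn and Ndn, both genes of the imprinted Prader-Willi region, at chr7:60915550-62209479. It holds 5 lincRNAs on the minus strand: Gm44644, A230006K03Rik, B230209E15Rik, A230057D06Rik and Gm9801. They did not share a pattern, with r from -0.64 to 0.66 and a median of 0.041 over 10 pairs. B230209E15Rik was highest in the Crh cluster at 437 CPM and lowest in cluster 7 at 129 CPM, while Gm44644 and Gm9801 were lowest in the Crh cluster, at 19.4 and 78.5 CPM. Summed over the run, levels were 2056 CPM in Ctrl, 2138 in KD and 2147 in Q153R.

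Levels by hashtag were compared over the 19 Sim1-expressing clusters, with 1352 nuclei labelled Ctrl, 993 KD and 1348 Q153R. Members held 2.52% of UMIs in Ctrl, 2.54% in KD and 2.53% in Q153R. From KD to Ctrl, 0 of the 209 members reached 1.5 times, where 0.105% of all genes were that much higher, 0.294% that much lower and 0.399% either. From Q153R to Ctrl, 1 member was higher (all genes 0.168%) and 1 was lower (all genes 0.063%), or 0.957% against 0.231% either way. From Q153R to KD, 0 members were higher (all genes 0.441%) and 1 was lower (all genes 0.168%), or 0.478% against 0.609%. The median member ratio was 1.001 for KD to Ctrl, 0.992 for Q153R to Ctrl and 0.993 for Q153R to KD. Between the 5th and 95th percentiles, member ratios lay from 0.819 to 1.19 for KD to Ctrl and from 0.832 to 1.17 for Q153R to Ctrl, close to 0.821 to 1.16 and 0.852 to 1.16 for all genes. The KD to Ctrl and Q153R to Ctrl ratios share the Ctrl nuclei. The share of nuclei with Xist and no Y-linked UMI also differed between the pools: 973 of 1352 in Ctrl, 833 of 993 in KD and 647 of 1348 in Q153R. The values within these nuclei are given beside the 3 called ratios.

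Gm26835, a lincRNA at chr10:13967024-14007405 opposite Hivep2, a zinc finger transcription factor gene, differed most upward. Its level was 70.0 CPM in Ctrl (525 UMIs), 92.1 in KD (550) and 112 in Q153R (719), and the intervals of the 3 pools do not overlap. The Q153R to Ctrl ratio was 1.60 (1.43 to 1.80), 1.58 within clusters, and it was higher in 15 of 19 clusters. Among nuclei with Xist and no Y-linked UMI it was 1.55. Hivep2 was at 473 CPM in Ctrl, 535 in KD and 631 in Q153R, a ratio of 1.33. In the GABAergic-like cluster, the Q153R to Ctrl ratio of Gm26835 was 1.12 (0.719 to 1.70).

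The member lowest against Ctrl in both other pools was 4930445B16Rik, a lincRNA at chr2:96987018-97083561 opposite Lrrc4c, the gene of a netrin-G ligand. It stood at 52.8 CPM in Ctrl (396 UMIs), 35.8 in KD (214) and 34.6 in Q153R (222), so Ctrl was high and the other two overlapped. Its ratio was 0.679 (0.572 to 0.804) for KD and 0.656 (0.554 to 0.775) for Q153R, while those of Lrrc4c were 0.941 and 0.997. In the GABAergic-like cluster the Q153R value was 0.964 (0.582 to 1.53). Leaving out the nucleus with the most UMIs of 4930445B16Rik moved its Q153R to Ctrl ratio to 0.667, just short of the threshold, and nuclei with Xist and no Y-linked UMI gave 0.698.

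4930509J09Rik and Gm20754, the overlapping pair on chromosome 3, were both lowest in Ctrl. 4930509J09Rik stood at 29.2 CPM in Ctrl, 41.4 in KD and 41.5 in Q153R, with ratios of 1.42 (1.18 to 1.71) and 1.42 (1.18 to 1.71). Both ratios passed 1.5 over all 4321 kept nuclei (1.52 for KD and 1.51 for Q153R). They also passed it among nuclei with Xist and no Y-linked UMI (1.51 and 1.55) and at stricter hashtag thresholds (1.70 and 1.55). With nuclei near multiple-tag barcodes kept they were lower, at 1.30 and 1.33. As a mean over nuclei they were 1.34 and 1.29, and within clusters 1.36 and 1.40. Gm20754 stood at 157, 213 and 195 CPM, with ratios of 1.36 (1.25 to 1.47) and 1.24 (1.15 to 1.35). D430041D05Rik, a coding row, was at 190 CPM in Ctrl, 266 in KD and 222 in Q153R, 1.40 times (1.30 to 1.51) higher in KD. 9630028H03Rik was at 27.7, 37.5 and 34.6 CPM, and its Q153R to Ctrl ratio of 1.25 was 1.03 over all 4321 kept nuclei.

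Below Ctrl in KD were 9530077C05Rik, at 64.9 CPM in Ctrl, 45.0 in KD and 66.2 in Q153R, and 4930447C04Rik, at 82.3, 58.9 and 74.0 CPM. The pool labelled KD was the low one for both, with ratios of 0.694 (0.596 to 0.807) and 0.717 (0.627 to 0.818) to Ctrl. 4833420G17Rik (0.730) and Gm15155 (0.768) were also lowest in KD. 4930532I03Rik was at 84.0 CPM in Ctrl, 82.0 in KD and 59.8 in Q153R, a Q153R to Ctrl ratio of 0.711 (0.625 to 0.809), beside 0.869 for Ppfia2 opposite it. It was lower in 16 of 19 clusters.

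1600020E01Rik, antisense to the RNA-binding protein gene Pcbp1, had the lowest Q153R to KD ratio. It stood at 58.8 CPM in Ctrl, 73.0 in KD and 46.7 in Q153R, a ratio of 0.639 (0.550 to 0.742), while Pcbp1 had 0.932 (0.726 to 1.20). Among nuclei with Xist and no Y-linked UMI the ratio of 1600020E01Rik was 0.629. It was 0.681 with nuclei near multiple-tag barcodes kept and 0.683 over all 4321 kept nuclei, both short of the threshold. A230006K03Rik from the chromosome 7 run was at 476 CPM in Ctrl, 565 in KD and 440 in Q153R, 0.779 times (0.740 to 0.819) in Q153R against KD, and lower in 18 of 19 clusters. 1810034E14Rik was 1.35 times (1.17 to 1.57) higher in Q153R than in KD, and Cdc14b 1.40 times.

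**Figure D5:**
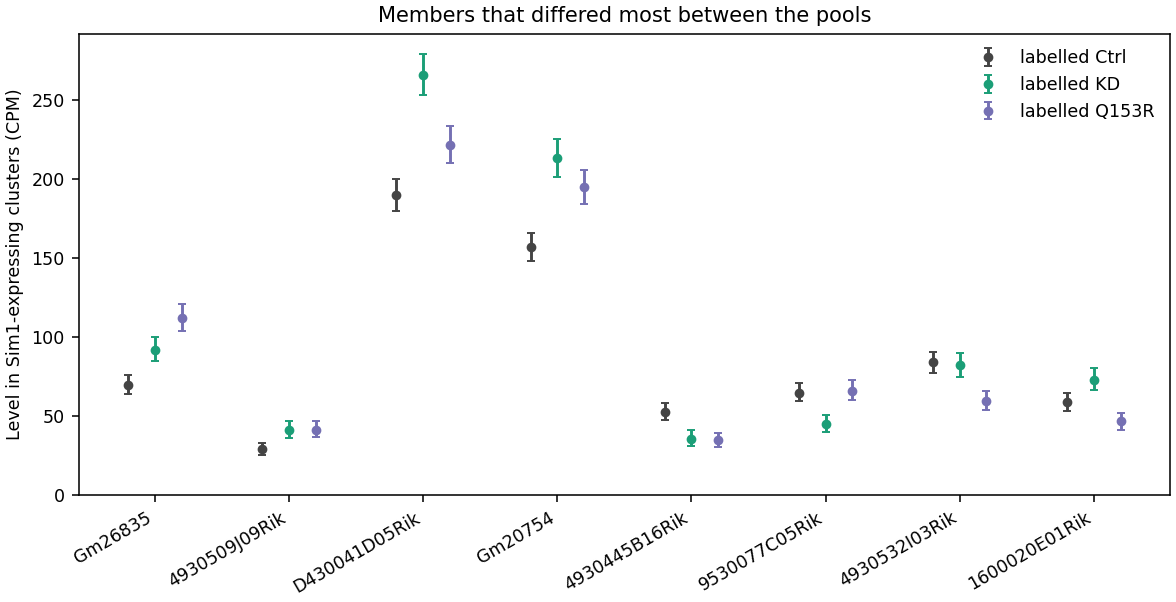
Points are levels (CPM) of 8 members in the Sim1-expressing clusters, coloured by hashtag pool, and bars are exact Poisson 95% intervals for counting error. Gm26835 steps from 70.0 in Ctrl to 92.1 in KD and 112 in Q153R, and 4930445B16Rik is higher in Ctrl (52.8) than in KD (35.8) and Q153R (34.6).

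The astrocyte-like cluster gives a view of the members outside neurons. It held 1.56% of its UMIs in members, against 2.53% in neurons, at a median depth of 1730 against 5040 UMIs per nucleus. There 97 members (46.4%) stood at 0.5 times their neuronal level or less, against 33.4% of all gene rows with at least 1000 UMIs, and 23 of the 97 had 0 UMIs. At 2 times or more stood 19 (9.09%), against 9.32%. The 3 highest, named after their values were seen, were Gm12239 at 488 CPM against 61.9 CPM in neurons (7.89 times, 6.23 to 9.88), Gm20732 at 277 against 50.5 CPM and 1110004F10Rik at 217 against 44.7 CPM. A count of 0 in this cluster allows up to 18.1 CPM, so low levels there were not detectable at this depth.

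Other rows, mostly noncoding RNAs of the nucleus, were set beside the members, and 2 of them (Snhg11 and Lars2) are annotated as protein coding. Of the 19 rows listed for context, 7 reached 2 times the median cluster in their highest cluster, against 22.3% of gene rows with at least 1000 UMIs. These 7 included Neat1 (311 UMIs), Dlx6os1 (310) and Pantr1 (163), all under that floor. The median cluster of Pantr1 was at 0 CPM. Meg3, a maternally expressed RNA of neurons, ranged from 3159 to 7297 CPM and Malat1, a nuclear speckle RNA, from 9622 to 16549 CPM. Dlx6os1, a marker of forebrain GABAergic neurons, was at 85.8 CPM in the GABAergic-like cluster and at 0.170 CPM in the median cluster. It was among the markers by which that cluster was named, so its high level there was part of the naming.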

How the data were processed

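Single-nucleus RNA of 1 pooled library (17 mice) was analysed. The authors deposited raw UMI counts per gene and hashtag row. Per the submitters' processing notes Cell Ranger 6.0.0 and mm10 were used, while the matrix header names 7.0.0. The sources used here give neither the intron nor the strand setting. Barcodes with at least 500 genes and 1 positive hashtag (Ctrl at 105, KD at 61, Q153R at 37 UMIs) numbered 4904 of 6173, with 27791629 UMIs. Of these, 583 were left out as probable doublets by the share of multiple-tag barcodes among 50 neighbours, which left 4321 nuclei with 22739609 UMIs. The highest mitochondrial share was 3.30%.

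Nuclei were clustered with scanpy 1.11.5 (2000 variable genes without Gm, Rik, marker, sex-linked and mitochondrial genes, 30 components, 15 neighbours, Leiden resolution 1). UMIs were summed over nuclei and divided by summed gene UMIs. Poisson intervals for levels and conditional binomial intervals for ratios are exact (scipy 1.17.1) and cover counting error only. Ratios within clusters are Mantel-Haenszel estimates. Annotation came from GENCODE on GRCm38, which held 31011 of 31053 identifiers, and promoters from RefSeq. Calls were at 2 and 0.5 times for types and at 1.5 times for pools. Named genes were drawn from the 8 members with the most UMIs and up to 5 high members per type. Others were the 5 highest and 5 lowest ratios per pool contrast, the rows at the threshold, the 5 widest ranges and their neighbours. Not every member of the pool lists is described, for example 2700069I18Rik (KD to Ctrl 1.36) and A330102I10Rik (Q153R to Ctrl 1.28). Ratio code was tested on simulated data. The members and lists were chosen with earlier results of these data known.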

Additional observations from a re-analysis of the deposited data

How the results depend on the processing

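Of 155 counts of called members recomputed under other settings, 106 lay within 1.5 times the reported count and 49 did not. Most of the 49 came from the floors of 2000 and 500 UMIs, which change the rows tested from 209 to 97 and 441. The share over all genes was not computed under the other settings. The counts below therefore cannot be read as more or fewer than among all genes. Of 477 ratios of named members, 450 stayed within their counting interval, 27 moved outside it, and 0 changed direction among called values.

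With nuclei near multiple-tag barcodes kept, the high counts were 5 for Trh and 4 for Sst, and the pool counts were 1 for Q153R to Ctrl and 0 for Q153R to KD. A clustering resolution of 0.5 gave 4 high members for Sst, and a resolution of 2 gave 4 for Sst and 0 for GABAergic-like. Selecting nuclei by marker UMIs gave high counts of 1 for Trh, 4 for Sst and 0 for GABAergic-like, and a low count of 3 for GABAergic-like. With a floor of 2000 UMIs fewer rows were tested (97). The high and low counts were then 5 and 13 for Oxt, 1 and 19 for Avp, 3 and 30 for Crh, 1 and 4 for Trh, 1 and 17 for Sst, and 0 and 1 for GABAergic-like, with pool counts of 1 for Q153R to Ctrl and 0 for Q153R to KD. With a floor of 500 UMIs more rows were tested (441). Counts were 24 and 65 for Oxt, 8 and 68 for Avp, 18 and 142 for Crh, 11 and 50 for Trh, 6 and 65 for Sst, and 7 and 12 for GABAergic-like, and 4 for KD to Ctrl, 10 for Q153R to Ctrl and 5 for Q153R to KD.

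For the pools, a mean over nuclei gave 2 for Q153R to KD, and leaving out the nucleus with the most UMIs of each row gave 1 for Q153R to Ctrl. All 4321 kept nuclei, with the GABAergic-like and astrocyte-like clusters added, gave 1 for KD to Ctrl and 0 for Q153R to KD. The GABAergic-like cluster held 19.3% of the kept nuclei in Ctrl, 11.9% in KD and 5.74% in Q153R, so that setting also mixes in composition. Stricter hashtag thresholds gave 1 for KD to Ctrl and 2 for Q153R to KD. Nuclei with Xist and no Y-linked UMI (2453) gave 2 for KD to Ctrl, 4 for Q153R to Ctrl and 3 for Q153R to KD. Apart from the floors, which change the rows tested, the cause was not tested. The ratio of Gm26835 for Q153R to Ctrl lay from 1.51 to 1.68 over the settings, that of 4930445B16Rik from 0.604 to 0.728, and that of 1600020E01Rik for Q153R to KD from 0.617 to 0.683. No paired analysis was possible because the genotypes were pooled in 1 library with no replicate numbers.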
